A study of Mus musculus with 7 samples.

Results

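The 10 genes described here build, sulfate and edit heparan sulfate, and the question put to them was where the transcription factor JUNB was found around each. They are Ext1, Ext2, Ndst1, Ndst2, Hs2st1, Hs6st1, Hs6st2, Hs3st1, Sulf1 and Sulf2, 10 of 21900 mouse protein-coding genes. They were named as a set by function, and overlapping JUNB peaks of 4 libraries were joined into regions that went to the protein-coding gene whose nearest end lay within 100 kb of the median summit. This gave the set 16 of 12655 regions, and 4 of the 10 genes received none. CUT&RUN, in which a tethered nuclease cuts out the DNA next to an antibody-bound protein, was run on the iMGT-Myh6-eGFP-MEF line. These mouse embryonic fibroblasts express Mef2c, Gata4 and Tbx5 (MGT) when doxycycline is added and carry an eGFP reporter driven by Myh6, and every group shares the transgenes and the doxycycline. The groups are siChst7, an siRNA against the chondroitin sulfate sulfotransferase gene Chst7, and siControl, each with 2 JUNB libraries from day 1 of MGT expression. All cells come from a single line, and the labels do not say whether the 2 biological replicates of a group were separate cultures, so that p-values measure only the spread between these libraries, which may be technical. Cells were transfected with the siRNA on the day before 1 µg/mL doxycycline was added. The treatment text of the labels lists siJunb and siH1f0 next to siControl and leaves siChst7 out, while titles and treatment tags give siChst7. The 3 IgG libraries of the series (2 siChst7, 1 siControl) are not analysed here, so no IgG value is set beside the JUNB values. Whether the authors' peak caller used them as control is not given.

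Heparan sulfate is a chain of alternating sugars that hangs on core proteins such as syndecans, glypicans and perlecan. Ext1 and Ext2 encode the polymerase pair that lengthens the chain, Ndst enzymes then replace acetyl groups by sulfate, and O-sulfotransferases add further sulfates. Sulf1 and Sulf2 act outside the cell and clip sulfates off again, which changes how fibroblast growth factors, Wnts and other ligands bind. JUNB is a subunit of AP-1, a factor with many sites in fibroblast enhancers. A peak near a gene does not show that the gene answers to JUNB, and expression was not measured in these files, so the level of each gene is not known here.

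None of the promoters at hand for these genes lay under a JUNB region. RefSeq promoter sequences (GRCm38.p6, the assembly of mm10) matched 7 of the 10 genes, all but Ext1, Ndst1 and Sulf1, in 9 windows of 250 bases before a start. The genes without a window are those with regions in every library, so their promoters could not be checked. Regions overlapped 0 of the 9 windows, against 3.77% of all 32851 windows in the table. With 9 windows, a count of 0 is near that share. The promoters of Ext2 and Hs3st1 are printed because Ext2 is the gene with a promoter at hand that had a region in more than 1 library, and Hs3st1 is the member farthest from any region. Capitals mark CG dinucleotides, which number 12 in the first window and 19 in the second.
Ext2 (chr2:93822569-93822818, minus strand): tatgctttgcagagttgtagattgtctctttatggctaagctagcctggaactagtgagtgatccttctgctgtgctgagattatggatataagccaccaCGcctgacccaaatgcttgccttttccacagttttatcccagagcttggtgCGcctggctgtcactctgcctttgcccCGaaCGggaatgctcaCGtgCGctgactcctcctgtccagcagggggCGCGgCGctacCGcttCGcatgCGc
Hs3st1 (chr5:39644632-39644881, minus strand): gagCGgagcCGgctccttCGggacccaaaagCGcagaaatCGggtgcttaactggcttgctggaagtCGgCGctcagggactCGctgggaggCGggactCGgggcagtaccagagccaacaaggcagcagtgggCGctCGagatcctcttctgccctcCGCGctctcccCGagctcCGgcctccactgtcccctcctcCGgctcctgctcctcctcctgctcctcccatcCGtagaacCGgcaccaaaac
CG dinucleotides in the 9 windows ran from 7 to 37 with a median of 19, against a median of 6 over all windows. The AP-1 letters TGANTCA, searched on either strand, were in 0 of the 9 windows and in 6.75% of all windows. TGACGTCA, a related site, was in 0 of the 9 and in 1.55% of all. With 9 windows, counts of 0 are near these shares, and they describe only the letters of the windows. The nearest JUNB summit lay 45.9 kb from the Ext2 start and 1090 kb from the Hs3st1 start, and the shortest such distance was 9.04 kb, at Hs2st1.

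A JUNB region was present in some library for 6 genes of the set, and 3 of them, Ext1, Ndst1 and Sulf1, had regions in every library. A region was called in both siChst7 libraries for 3 of 10 genes, where 11.3% of all protein-coding genes had such a region, and in both siControl libraries for the same 3, where 11.0% did. In any library the count was 6 of 10 against 25.1% of all genes, and a region common to the 4 lists was present for 3 of 10 against 8.32%. The stretch of genome nearest to a gene, within the limit, sets how many regions it can receive. Here that stretch had a median length of 156 kb, against 46.4 kb over all protein-coding genes. Per Mb of that genome the set had 8.65 regions and 2.7 common regions, against 6.49 and 1.42 for all protein-coding genes. These are descriptions of a small set, with no test.

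**Figure D1:**
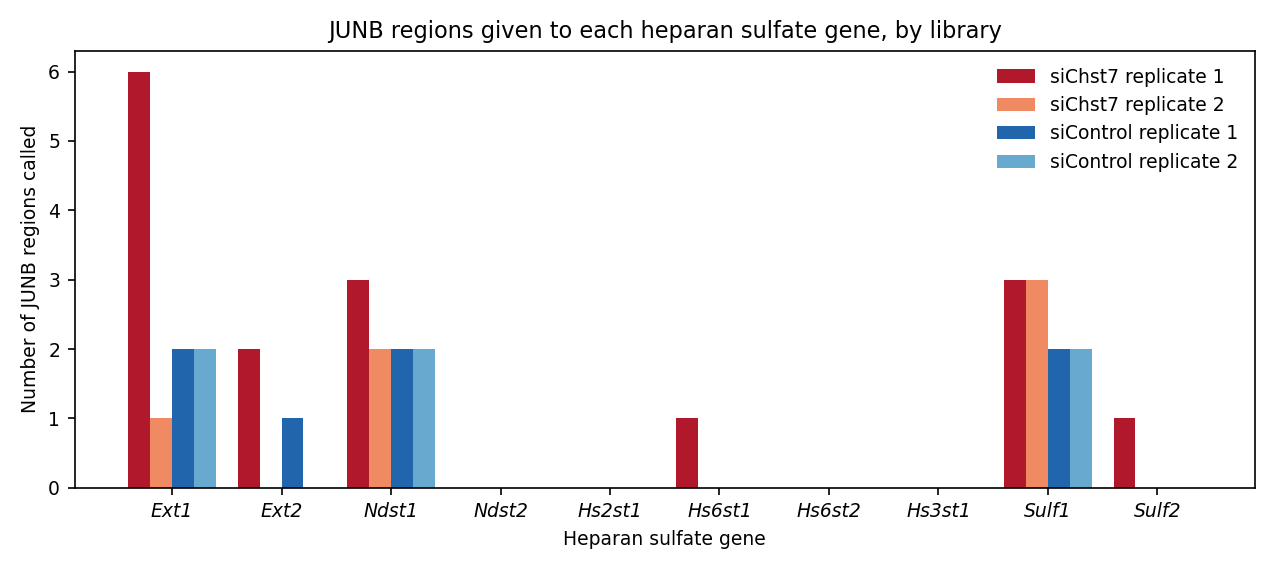
Number of JUNB regions given to each heparan sulfate gene (y axis, count) in the 2 siChst7 and 2 siControl libraries (bars). The siChst7 replicate 1 bars reach 6 at Ext1, Ext2 has bars in replicate 1 of each group, and Ndst2, Hs2st1, Hs6st2 and Hs3st1 have none.

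The polymerase genes held 8 of the 16 regions, all of them inside the genes. Ext1 (chromosome 15, 53068261 to 53346183, mm10) had 6 regions in siChst7 replicate 1 and 1 in siChst7 replicate 2, against 2 in siControl replicate 1 and 2 in siControl replicate 2. The count is highest in siChst7 replicate 1 and lowest in siChst7 replicate 2, so that the groups overlap. The region of Ext1 common to the 4 lists (53329428 to 53330389) lay 16.2 kb inside the higher-coordinate end. Its fold enrichment, a value that the authors' peak caller gives each peak as a ratio over local background, was 11.6 and 4.88 in siChst7 replicates 1 and 2, against 10.3 and 3.79 in siControl replicates 1 and 2. It stood in the best 12.7% of peaks by q in siChst7 replicate 1, and at 91.9% of the way down the siChst7 replicate 2 list. In siControl it stood at 18.2% and 94.5%. Replicate 1 of each group thus had the region high in its list and replicate 2 had it low.

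A second Ext1 region (53112688 to 53113356) was called in siChst7 replicate 1 with a fold of 8.16, against 7.71 and 5.70 in siControl replicates 1 and 2. It was missing from siChst7 replicate 2, the shortest list. The other 4 Ext1 regions were in siChst7 replicate 1 alone, with folds of 3.81 to 5.78. A pair of them, 4.54 and 4.98 kb from the higher-coordinate end, lay 238 bp apart from edge to edge. Ext1 is 278 kb long, and 2 more regions in its middle, 133 and 135 kb from the lower-coordinate end, were over the 100 kb limit and belong to no gene by the rule. The larger of these (53201309 to 53202358) had a fold of 8.65 in siChst7 replicate 1, against 4.22 in siControl replicate 1, and the smaller was in siChst7 replicate 1 alone.

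Ext2, which encodes the partner of Ext1 (chromosome 2, 93695631 to 93822568), had 2 regions in siChst7 replicate 1 and 0 in siChst7 replicate 2, against 1 in siControl replicate 1 and 0 in siControl replicate 2. Its better-placed region (93776454 to 93776848) had a fold of 7.51 in siChst7 replicate 1, against 8.72 in siControl replicate 1. The summits of these 2 peaks were 67 bp apart. Replicate 1 of each group thus held this region and replicate 2 of each group did not. The other region lay 270 bp away and was in siChst7 replicate 1 alone, with a fold of 4.58. The regions lie 45.9 and 46.7 kb from the higher-coordinate end, which is the start of the gene on its minus strand.

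Of the N-deacetylase/N-sulfotransferase genes, Ndst1 had 3 regions and Ndst2 none. Ndst1 (chromosome 18, 60684494 to 60749035) encodes the enzyme that starts sulfation of the chain, and had 3 and 2 regions in siChst7 replicates 1 and 2, against 2 and 2 in siControl replicates 1 and 2. The region inside the gene at 60736179 to 60737323, 12.4 kb from the higher-coordinate end, had the best mean place in the lists among the 5 common regions. Its fold was 6.16 and 9.45 in siChst7 replicates 1 and 2, against 10.7 and 7.67 in siControl replicates 1 and 2. It ranked in the best 28.3% and 11.9% of the siChst7 lists and in the best 17.1% and 30.4% of the siControl lists. No library missed it, and it stood in the upper part of each list.

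The second common region of Ndst1 lay outside the gene, 7.32 kb beyond its higher-coordinate end (60756038 to 60757098). Its fold was 10.2 and 6.04 in siChst7 replicates 1 and 2, against 5.80 and 4.42 in siControl replicates 1 and 2. It stood at 18.9% and 65.7% of the way down the siChst7 lists, in replicate order, and at 72.8% and 95.2% down the siControl lists. Folds and places belong to their own list, and lists of different length do not put them on a common scale. The third region, 16.2 kb inside the same end, was in siChst7 replicate 1 alone. Ndst2, a related enzyme known for its part in mast cell heparin (chromosome 14, 20723730 to 20734570), is the shortest gene of the set at 10.8 kb and has 11.0 kb of genome nearest to it. The region closest to it lay 26.8 kb away, beside Fut11, and was in 1 library.

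The O-sulfotransferase genes held 1 region among the 4 of them. Hs6st1, which adds sulfate at the 6-O position of glucosamine (chromosome 1, 36068400 to 36106446), had a region 10.4 kb beyond its higher-coordinate end in siChst7 replicate 1 alone, with a fold of 4.61. That peak stood 92.8% of the way down its list. Hs2st1, the enzyme for the 2-O position of the uronic acid (chromosome 3, 144429701 to 144570216), had none. The region closest to it, in 1 library, lay 9.04 kb from its end and went to Selenof, whose end was 8.83 kb away. Hs6st2 (chromosome X, 51386637 to 51681705) is the longest gene of the set and had none by the rule. A region in its middle (51581531 to 51581772), with a fold of 5.15 in siControl replicate 1 and no call elsewhere, lay 100038 bp from the nearer end, 38 bp past the limit. Hs3st1, which makes the rare 3-O-sulfated site that antithrombin binds (chromosome 5, 39613935 to 39645592), had no region within 1060 kb of its ends, although the genome nearest to it measured 232 kb, longer than for 94.1% of genes.

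The sulfatase genes differed from each other. Sulf1 (chromosome 1, 12692197 to 12861192) had 3 and 3 regions in siChst7 replicates 1 and 2, against 2 and 2 in siControl replicates 1 and 2, all outside the gene and below its lower-coordinate end. No region lay inside its 169 kb. The farthest region, 71.4 kb from the gene (12620116 to 12621019), had folds of 10.7 and 4.92 in siChst7 replicates 1 and 2, against 5.90 and 5.34 in siControl replicates 1 and 2. It stood at 16.9% and 79.2% of the way down the siChst7 lists, in replicate order, and at 57.7% and 66.5% down the siControl lists. The region 33.6 kb from the gene (12658107 to 12658828) had folds of 7.66 and 5.68 in siChst7 replicates 1 and 2, against 6.90 and 5.80 in siControl replicates 1 and 2. It was called in every library, and lay 1.82 kb from the pseudogene Gm6216, which the rule does not count, and 33.6 kb was the shortest distance from Sulf1 to any region.

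The third Sulf1 region (12623196 to 12623453, 68.8 kb from the gene) was the only siChst7-only region of the set, called in both siChst7 lists and neither siControl list. Its folds were 5.66 and 4.84 in siChst7 replicates 1 and 2. Both peaks were low in their lists, at 73.1% and 92.8% of the way down, with −log10 q of 4.91 and 3.09. It lay 2176 bp from the edge of the common region at 71.4 kb. Such regions made up 1 of 16 in the set and 3.88% of all regions. siControl-only regions were 0 of 16 in the set and 1.6% of all regions. By the rule of 3 (3 of 16), the 0 allows a share of up to 18.8%, if the 16 regions are taken as independent. Sulf2, the second sulfatase gene (chromosome 2, 166073899 to 166155683), had a region 7.14 kb inside its lower-coordinate end in siChst7 replicate 1 alone, with a fold of 5.19. The end of Ncoa3 was nearly as close, at 7.79 kb.

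**Figure D2:**
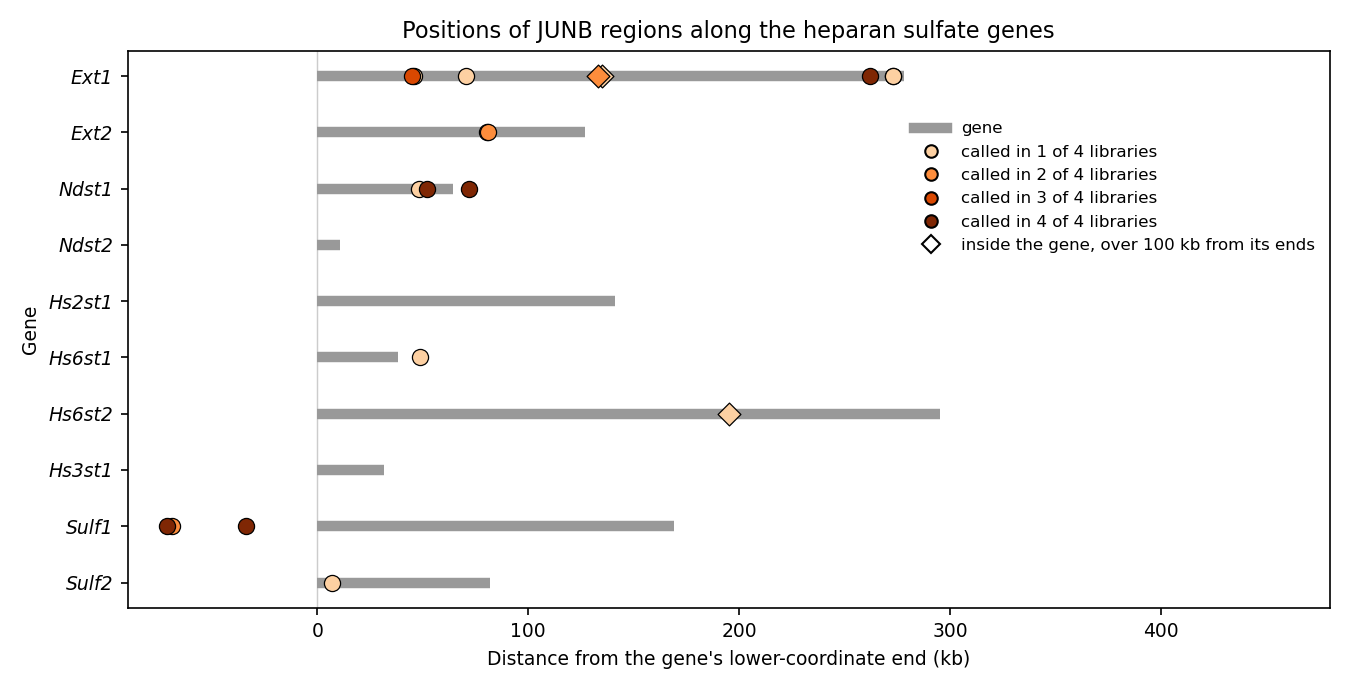
Positions of JUNB regions (points) along the 10 genes (grey bars), in kb from each gene's lower-coordinate end. Darker points were called in more of the 4 libraries, and diamonds are 3 regions inside Ext1 and Hs6st2 that lie over 100 kb from the gene's ends. The Sulf1 points all sit left of the gene and the Ext1 points all inside it.

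By position, 11 of the 16 regions (68.8%) had their summit inside the gene, against 56.3% of the 11016 regions given to any protein-coding gene that lay inside one. Of the 16 regions, 0 lay within 1 kb of a gene end, where 13.9% of those 11016 lay. The median distance to the end was 24.9 kb, against 13.1 kb for the 11016. Over 10 kb from the end were 12 of the 16 (75.0%), against 56.5% of the 11016, and over 40 kb were 7 of the 16 (43.8%), against 20.6%. The genome nearest to these genes had a median length of 156 kb, against 46.4 kb over all protein-coding genes. Positions were not compared with those at genes of equal length, so the part of length in these shares was not tested. The 71.4 kb region of Sulf1 was the farthest inside the limit of 100 kb, and the Hs6st2 region 38 bp past it was the closest outside. Whether a region inside a gene falls in an exon or an intron was not analysed here.

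By library, 5 of the 16 regions were in all 4 lists, against 22.0% of all regions. Another 8 were in a single list, against 46.7% of all regions, and the single list was siChst7 replicate 1 each time, where 29.2% of all regions were in that list alone. None of the 16 was in siChst7 replicate 2 alone, siControl replicate 1 alone or siControl replicate 2 alone, where 3.36%, 8.31% and 5.89% of all regions were. All 16 regions were in siChst7 replicate 1, the longest list, which held 79.5% of all 12655 regions. The 5 common regions were of ordinary width, with a median of 962 bp against 925 bp for all 2785 common regions. Their median place in a list was farther down than that of all common regions in each of the 4 lists, by the least in siChst7 replicate 1. The median was 18.9% and 74.3% of the way down the siChst7 lists, in replicate order, where all common regions had 15.7% and 32.1%. In the siControl lists it was 45.2% and 67.9%, where all common regions had 25.0% and 27.9%. The 8 regions of siChst7 replicate 1 alone had a median fold of 5.19, against 5.45 for all 3692 such regions.

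**Figure D3:**
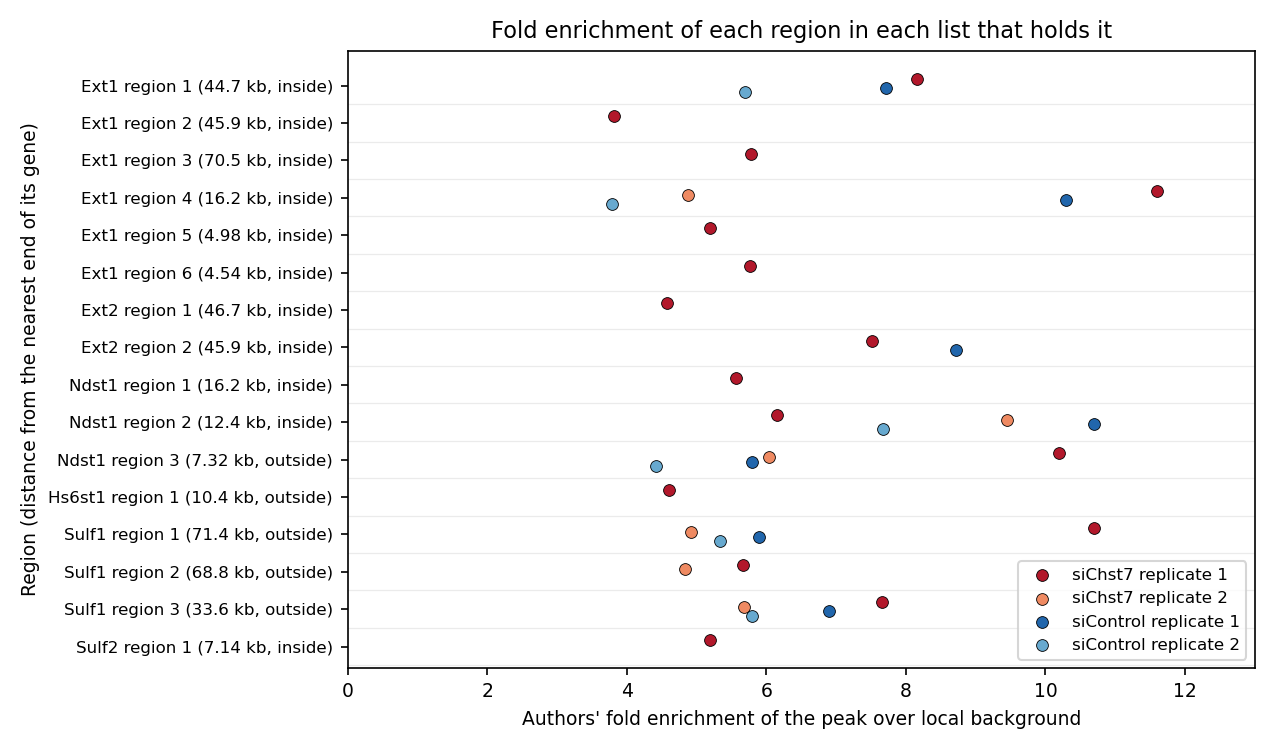
Fold enrichment over local background given by the authors' peak caller (x axis, ratio) for each of the 16 regions, one row each, with a point for each list that holds the region. Rows with a single point all show siChst7 replicate 1, and the intragenic Ndst1 region has points from 6.16 to 10.7 in the 4 lists. Folds are values within a list, and lists differ in length.

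The peaks behind a common region did not always cover the same bases. In 3 of the 5 common regions the 4 peaks shared a stretch, against 96.0% of all 2785 common regions. The intragenic Ndst1 region had the longest, 630 bp, and its 4 summits fell within 142 bp. The Sulf1 regions 71.4 and 33.6 kb from the gene shared 538 and 177 bp, and their summits ranged over 422 and 499 bp. The common Ext1 region had no base shared by all 4 peaks, because the siChst7 replicate 2 peak ended 228 bp into the region and the siControl replicate 1 peak began at 473 bp. At the Ndst1 region beyond the gene's end, the siChst7 replicate 2 peak began at 404 bp and the siControl replicate 2 peak ended at 338 bp. The median range of summits over the 5 was 446 bp, against 186 bp over all common regions.

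At that outer Ndst1 region the summits also separated by group. They stood 543 and 471 bp into the region in siChst7 replicates 1 and 2, against 167 and 46 bp in siControl replicates 1 and 2. At the intragenic Ndst1 region they stood at 462 and 428 bp in siChst7 replicates 1 and 2, against 420 and 320 bp in siControl replicates 1 and 2, which is a smaller step in the same direction along the chromosome. The summits of the groups did not overlap in these 2 of the 5 common regions, and in 33.1% of all 2785 common regions, so the count in the set is near that background.

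**Figure D4:**
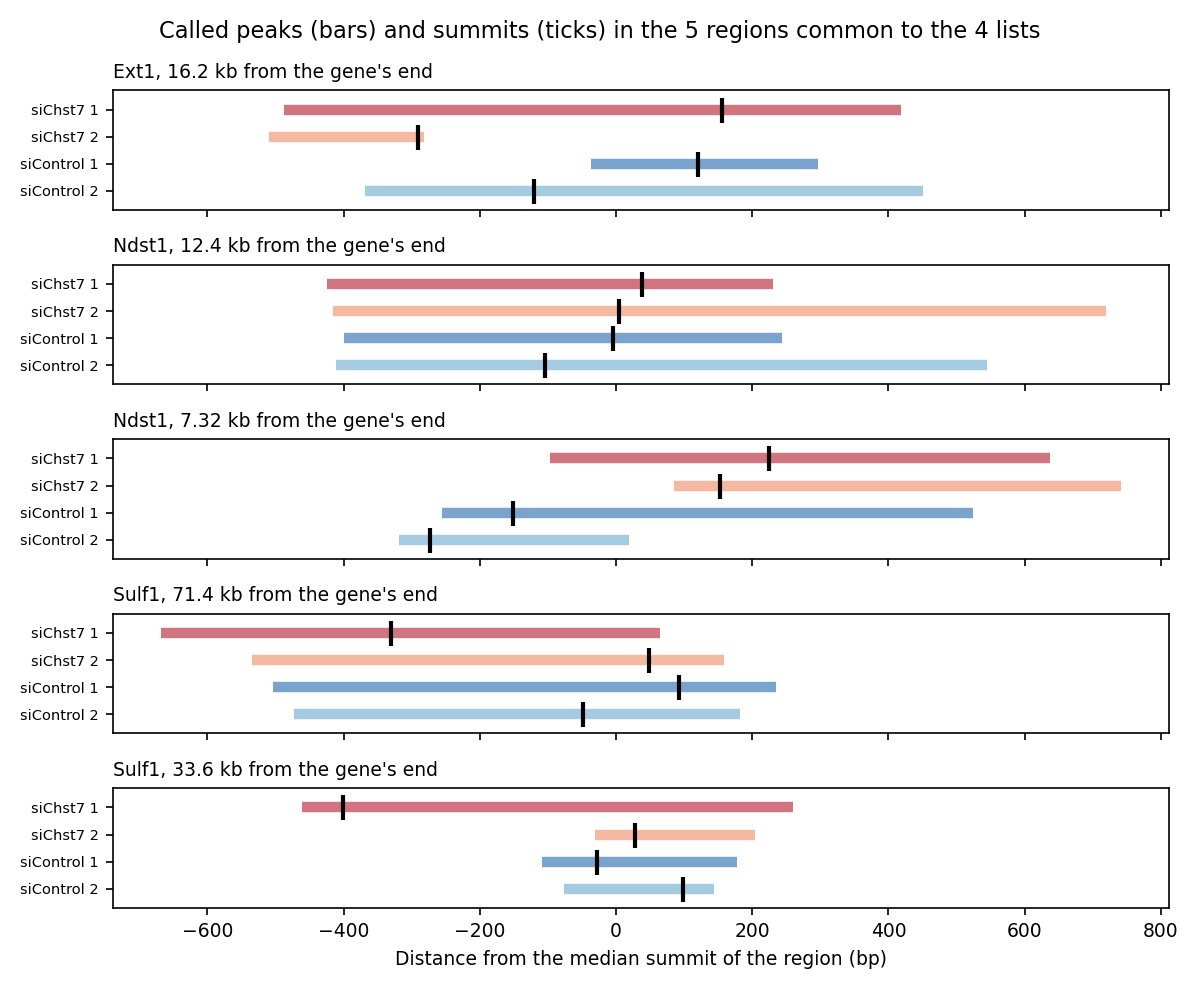
Called peaks (bars) and their summits (ticks) in the 5 regions common to the 4 lists, in bp from the region's median summit, with siChst7 libraries above siControl libraries. Summits of the intragenic Ndst1 region fall within 142 bp, and those of the Ndst1 region beyond the gene's end lie on opposite sides of the centre in the siChst7 and siControl libraries.

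Between the siRNA groups, the number of regions at these genes did not differ beyond the spread between replicates. The libraries held 16 and 6 regions of the set in siChst7 replicates 1 and 2, against 7 and 6 in siControl replicates 1 and 2. The means were 11.0 ± 7.07 in siChst7 and 6.5 ± 0.707 in siControl (SD, n = 2 each), a difference of 4.5 with a two-sided exact permutation p of 1, in a design whose smallest p is 0.333. The difference rested on siChst7 replicate 1, whose list was the longest with 10163 peaks, against 4735 in siChst7 replicate 2 and 6469 and 5827 in siControl replicates 1 and 2. Without that library the difference was -0.5. With every list cut to the same length, the set had 7 and 6 regions in siChst7 replicates 1 and 2, against 7 and 4 in siControl replicates 1 and 2.

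As a share of all regions of a library, the set made up 0.159% (95% exact Clopper-Pearson interval 0.091 to 0.258) in siChst7 replicate 1 and 0.13% (0.0478 to 0.283) in siChst7 replicate 2. In siControl replicates 1 and 2 the shares were 0.111% (0.0445 to 0.228) and 0.106% (0.0389 to 0.231). Both siChst7 shares are above both siControl shares, by 0.0363 percentage points on average. A two-sided exact permutation test gave p = 0.333, the smallest that 6 splits of 4 libraries allow. The intervals, which cover counting error only and take regions as independent, overlap widely. In siChst7 replicate 1, 6 of the 16 regions lay at Ext1, so that interval may be too narrow. The order of the groups was lost, with an exact permutation p of 1, at equal list length, at a fold of at least 5 and with assignment by gene bodies.

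Among other genes of the pathway, counts of genes with a region in both libraries of a group were highest for the proteins that carry the chains, and differences between lists were not tested. In any library, 8 of 13 core protein genes (61.5%), 6 of 8 nucleotide sugar genes (75.0%) and 4 of 15 other chain enzymes (26.7%) had a region, against 25.1% of all protein-coding genes. Below that share were 1 of 6 linker genes (16.7%), 1 of 7 sulfate donor genes (14.3%) and 0 of 9 genes listed under lysosomal breakdown. The 6 lists together had 20 of 58 (34.5%). Core proteins had a region in both siChst7 libraries for 8 of 13 genes and in both siControl libraries for 6 of 13. Sdc4, a syndecan of focal adhesions, had a common region 4.22 kb from its end with folds of 22.5 and 14.4 in siChst7 replicates 1 and 2, against 12.8 and 10.8 in siControl replicates 1 and 2. No common region of the 10 genes of the set was placed as high in the lists, where this region had a mean place of 6.54% and the intragenic Ndst1 region 21.9%. Gpc3, a glypican, Col18a1, the collagen that yields endostatin, and Hspg2, which encodes perlecan, also had common regions, with mean places of 17.1%, 17.8% and 20.2%. Sdc3 and Gpc4 were the 2 core protein genes with regions in both siChst7 libraries and not in both siControl libraries, each with 1 siChst7-only region. Such regions made up 3.88% of all regions. Folds in siChst7 replicates 1 and 2 were 5.77 and 5.05 at Sdc3 and 2.68 and 2.64 at Gpc4. These are under the median folds of the 2 lists, 6.61 and 6.65. The difference between the groups in core proteins was not tested.

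Of 15 other chain enzymes, 0 had a region in both siChst7 libraries and 1, Hs3st3b1, in both siControl libraries. The 6 genes listed under the linker, the first sugars on a core protein, had 0 and 0. With 6 genes, a count of 0 is near the 11.3% and 11.0% of all protein-coding genes. The 9 genes listed under lysosomal breakdown of the chain had 0 regions in any library, where 25.1% of all protein-coding genes had one. Of 8 genes that supply nucleotide sugars, Gfpt2, Ugdh and Uxs1 had a region in both libraries of each group. The Ugdh region lay 0.327 kb from the end of the gene, which encodes the enzyme that makes UDP-glucuronic acid, and had folds of 16.8 and 11.4 in siChst7 replicates 1 and 2, against 8.01 and 6.82 in siControl replicates 1 and 2. Of 7 genes listed under synthesis and transport of the sulfate donor, Bpnt2 had a region in both libraries of each group. It encodes a phosphatase of the Golgi that neither makes nor transports that donor. Over these 6 lists the count was 12 of 58 in siChst7 and 11 of 58 in siControl, or 20.7% and 19.0%, against 11.3% and 11.0% of all protein-coding genes. With gene bodies plus 5 kb the counts were 6 in siChst7 and 7 in siControl. The shares of all protein-coding genes under that assignment were not computed, so these counts have no background to stand beside. The genome nearest to the genes of these lists, which sets how many regions they can receive, was not compared with that of all genes.

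**Figure D5:**
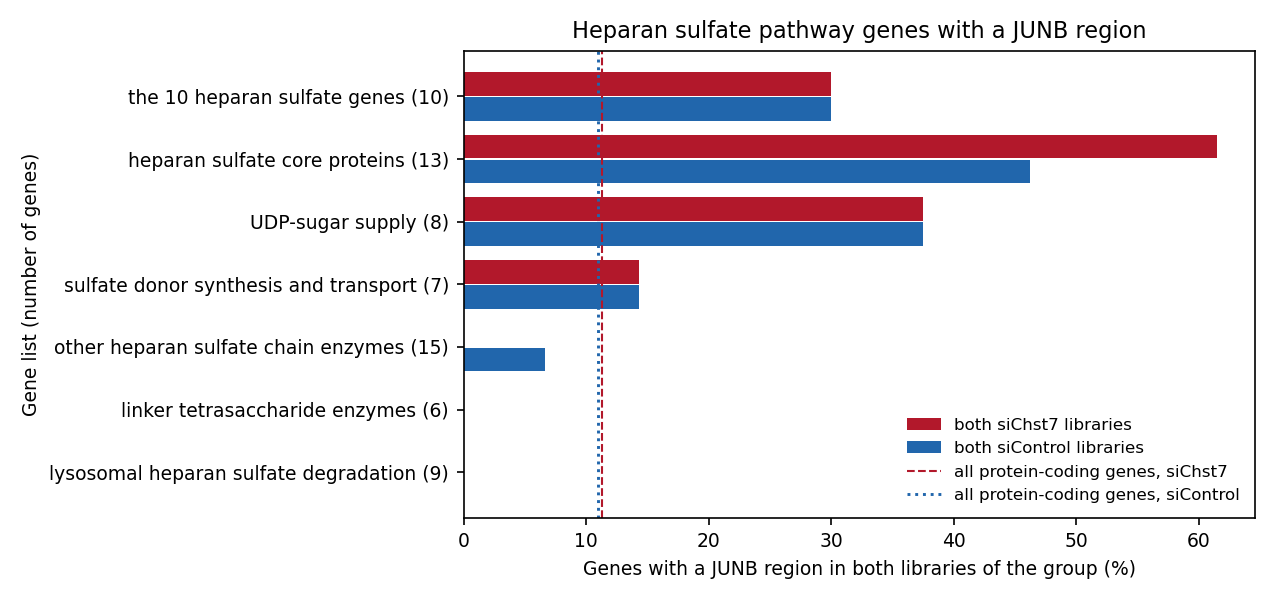
Share of genes (x axis, percent) with a JUNB region in both siChst7 libraries (upper bars) and in both siControl libraries (lower bars), for the 10 genes and 6 other lists of the pathway. Dashed and dotted lines give the shares over all protein-coding genes, 11.3% and 11.0%. Core protein genes reach 61.5% and 46.2%, and the linker and lysosomal lists have no bar.

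Cell type could not be checked by expression, since peak lists hold none. Of fibroblast marker genes, 5 of 10 had a region in both siChst7 libraries and 6 of 10 in both siControl libraries, where 11.3% and 11.0% of all protein-coding genes did. For endothelial markers these counts were 4 and 4 of 8, for macrophage markers 0 and 3 of 8, and for cardiomyocyte markers 0 and 0 of 8. In any library the counts were 6 of 10 fibroblast, 6 of 8 endothelial, 4 of 8 macrophage and 2 of 8 cardiomyocyte markers, against 25.1% of all protein-coding genes, and their part in the results was not tested. The genome nearest to these marker genes was not compared with that of all genes.

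The number of libraries behind a region of the set depended on how peaks were joined and filtered. The intragenic Ndst1 region was in 4 libraries under each of 5 other ways. Peaks were joined at 50% reciprocal overlap or as summits widened by 100 bp either way, lists were filtered at q 0.001 or at fold 5, or all were cut to equal length. The 2 common Sulf1 regions were in 4 libraries under 3 of these 5 and in 3 libraries under the others. The common Ext1 region and the outer Ndst1 region were in 2 or 3 libraries under each of the 5. With summits in place of peaks, the outer Ndst1 region became a siControl-only window (60755984 to 60756305) and a siChst7-only window (60756409 to 60756681). The siChst7-only region of Sulf1 was in 1 library at a fold of at least 5 and at equal list length. How often regions outside the set change in this way was not counted.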

How the data were processed

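JUNB CUT&RUN peak lists of 4 libraries were analysed, 2 siChst7 and 2 siControl. Per the submitters' processing notes, Bowtie2 and MACS3 were used with the mm10 build. Their settings, and whether IgG served as control for MACS3, are not given in the sources used here. The deposited lists give, for each peak of a library, its extent, its summit, a fold enrichment (a ratio made by the authors' peak caller) and, as −log10, a p-value and a q-value. Lists were matched to libraries by peak names. The lowest −log10 q of each list was near 2, at 2.00 to 2.02. The labels state 30 M reads per library. Depth cannot be measured from peak lists, so signal under a list's threshold cannot be seen, and intervals cover counting error only.

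Peaks overlapping by at least 1 bp were joined. Positions count from 1 on mm10. Genes were taken from a RefSeq table (GRCm38.p6) in which all 10 genes and all 58 of the other pathway genes matched. Where a gene's strand was not used, ends are called lower- or higher-coordinate. The genome nearest to a gene was counted up to 100 kb from its ends. A place in a list is the rank by q as a percent of the list. The set, the lists and the tests were chosen with earlier results of these data known. All 10 genes were named with all their regions, and of other lists up to 4 genes with the best mean rank of a common region. Other genes named belong to counts of 5 or fewer, or neighbour a region described. Group means were set against each other with an exact permutation test, two-sided, over the 4 libraries. Counts of genes were set beside those of all genes with no test. Joining and gene assignment were tested on simulated peaks planted near gene ends with known answers, and the permutation test on set values. The simulated peaks of a region shared a summit, so shifted peaks and the 100 kb limit were not tested. Motifs under summits were not searched, since no genome sequence was used here, and promoters took their place. Alternatives were other overlaps, thresholds and gene assignments, equal list length, leaving out each library and a replicate block. Deviations of same-numbered libraries correlated at -0.0324 over all regions, so that the numbers were not taken to pair the libraries. Figures were drawn with Matplotlib 3.10.9, tables were handled with pandas 2.3.3 and NumPy 2.4.6, and intervals and tests were computed with SciPy 1.17.1 under Python 3.11.15.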

Additional observations from a re-analysis of the deposited data

How the results depend on the processing

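The siChst7 minus siControl difference in regions per library was 4.5 and stayed positive under 7 other settings of joining, threshold and assignment, at 1 to 5. Leaving out each library in turn gave -0.5 to 9.5, with -0.5 without siChst7 replicate 1. The difference in share, 0.0363 percentage points, stayed positive under each setting run, at 0.00799 to 0.051, and at 0.0215 to 0.0507 with a library left out. Its order, both siChst7 libraries above both siControl libraries, was lost at a fold of at least 5 (0.157% and 0.076% in siChst7, 0.129% and 0.088% in siControl), with gene bodies (0.129% and 0.0434% in siChst7, 0.0948% and 0.053% in siControl) and at equal list length (0.149% and 0.13% in siChst7, 0.15% and 0.0862% in siControl). With the replicate block the differences were the same, 4.5 and 0.0363, with exact permutation p of 1 and 0.5. An exact permutation p of 0.5 is the smallest that the block design allows, so no call could change.

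The 5 common regions became 2 with 50% reciprocal overlap, 1 with summit windows, 3 at a q of at most 0.001, 2 at a fold of at least 5, 3 at equal list length, 3 with the assignment limit at 20 kb and 2 with gene bodies plus 5 kb. They were 5 to 6 with a library left out. The single siChst7-only region became 2 with summit windows, and 0 at a fold of at least 5, at equal list length, within 20 kb and with gene bodies. It was 1 to 9 with a library left out, the 9 without siChst7 replicate 2. siControl-only regions were 1 with summit windows and 0 to 1 with a library left out, the 1 being the Ext1 region at 53112688 without siChst7 replicate 1. Shares over all regions were not computed under these settings. Whether these counts changed more than those of all regions was therefore not tested. Genes with a region in both libraries ran from 3 to 6 in siChst7 and from 3 to 4 in siControl with a library left out, since a group that loses a library needs a call in the other only. Of 7 other settings, 5 gave 2 genes in siChst7 and 3 gave 2 in siControl, and the groups differed, at 2 in siChst7 and 3 in siControl, with summit windows and at a fold of at least 5.

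For the 6 other pathway lists, the siChst7 count of 12 was 6 with gene bodies and ran from 12 to 19 with a library left out. The siControl count of 11 was 7 with 50% reciprocal overlap, 7 within 20 kb and 7 with gene bodies, and ran from 11 to 14. Shares of all protein-coding genes were not computed under these settings, for these lists or for the set. The causes were not tested. Assignment by transcription start was not run, because starts of 7 of the 10 genes were at hand. With gene bodies Sulf1 had 0 regions and Hs6st2 had 1. With 2 libraries a group no comparison between groups could reach an exact permutation p under 0.333.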
